A study of Arabidopsis thaliana with 18 samples.

Results

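The subject is a set of 568 introns of Arabidopsis thaliana. In some aligned reads, each ended at an unannotated 3′ splice site 1 to 10 bases downstream of an annotated one. They are 568 of the 4007 unannotated junctions in the deposited counts, and they lie in 444 genes. A junction was included if it belonged to a single gene, had at least 20 reads over the 18 libraries, shared its 5′ splice site with an annotated junction of that gene, and had a 3′ site that matched no annotated one. The distance was taken along the strand of the gene from the nearest annotated 3′ site that was joined to the same 5′ site. The lowest member had 82 reads and the lowest of all unannotated junctions 80, so the minimum of 20 removed none. How the authors selected unannotated junctions before deposit is not given in the sources used here, and each share below is a share of that selection. These lowest counts are sums over all genotypes, so a site can be in the set through reads of the genotype in which it is high. The rule itself uses no difference between genotypes, but it was drawn up with earlier results of these data known. The text calls these junctions near-downstream sites, and the annotated junction from which the distance was counted is called the partner. Coordinates are 1-based TAIR10 positions, per the submitters' processing notes, and span the intron up to the new 3′ site.

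An intron ends at a 3′ splice site, usually an AG dinucleotide, and the spliceosome chooses it in the second step of splicing, after the branch point has been joined to the 5′ site. Where a second AG follows closely, a shift to it removes the bases between the sites from the mRNA, and the reading frame is kept when that number is a multiple of 3. XCT (XAP5 CIRCADIAN TIMEKEEPER) is a nuclear protein of the conserved XAP5 family that was named for its effect on the plant circadian clock, and PRL1 is a WD40 protein of the NTC, a complex of the activated spliceosome. The series examined how splicing differs when either protein is altered.

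Transcripts of whole seedlings were read as full-length cDNA with PacBio Iso-Seq, in 6 genotypes with 3 libraries each. The genotypes were the line xct-2 XCT::XCT and its parent mutant xct-2, the line xct-1 XCT::SpXAP5 and its parent mutant xct-1, the mutant prl1-2, and the wild type Col-0. The line xct-2 XCT::XCT is the xct-2 mutant with an XCT transgene, which a file header calls XCT-YFP-HA. The line xct-1 XCT::SpXAP5 is the xct-1 mutant with a transgene named for SpXAP5, the fission yeast member of the family. All 6 groups received the same light, temperature and sampling. Seeds were stratified for 3 days and seedlings kept at 22 °C in continuous light with a fluence rate of 55 µmol m-2 s-1. Harvests made every 2 h for 24 h were combined. The harvest is given as day 11 in one label and the age as 10 days in another. The labels describe the replicates as independent, but state neither the number of transgenic lines nor that of plants per pool. In whole seedlings, fewer cells of a type and less RNA per cell cannot be told apart.

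Gene reads per library ran from 459150 to 1046273, and each gene read came with 7.05 to 11.5 junction reads. The lowest 4 of these ratios, 7.05 to 7.93, belonged to replicate 2 of xct-1, xct-2, prl1-2 and Col-0, so the ratio varied within these genotypes. The part of this ratio in the results was not tested, and counts without each library are given in the closing section. Leaf and root transcripts were both present, with 749 to 7415 reads of the leaf gene RCA and 366 to 2375 reads of the root gene PYK10 per library. A second root gene, TIP2;3, had 0 to 5 reads per library. XCT (AT2G21150) had 654, 284 and 334 reads in xct-2 XCT::XCT libraries, against 4, 8 and 4 in xct-2 libraries. The 8, 16 and 2 reads of Col-0 libraries overlap those of xct-2, but the first 3 exon bins of the gene held 0 reads in xct-2, against 25, 25 and 26 over the Col-0 libraries. No prl1-2 library held a read of PRL1 (AT4G15900), against 33, 26 and 10 in Col-0.

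The near-downstream sites were spread unevenly over the 10 distances. There were 8 at 1 base, 76 at 2 bases, 92 at 3 bases, 105 at 4 bases and 94 at 5 bases. Fewer lay further away, with 42 at 6 bases, 52 at 7, 27 at 8, 29 at 9 and 43 at 10. The distance was a multiple of 3 for 163 sites and not for the other 405. Of the 444 genes, 359 held 1 such site and 85 held 2 or more, up to 5 in 1 gene. The sites used 560 different 5′ sites, 8 of which led to 2 new 3′ sites each. The partner introns had a median length of 104.5 bases (quartiles 87 and 190.75), beside 104 bases (87 and 191) for all annotated junctions tested. Chromosomes 1 to 5 and the plastid genome held 144, 86, 117, 74, 143 and 4 of them.

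Most near-downstream sites held a minor share of the reads, in Col-0 too. No sequence was examined for an AG at the new sites, which are known from aligned reads only. Usage is the number of reads on a junction as a percentage of the reads of its gene. Its median over the 568 sites was 3.68% in Col-0 (quartiles 1.22% and 9.71%), and every site had at least 1 read in the pooled libraries of xct-2, of xct-1, of xct-1 XCT::SpXAP5 and of Col-0. At 0 reads were 3 sites in prl1-2 and 1 in xct-2 XCT::XCT. Reads were present in every one of the 18 libraries at 463 sites. Reads leaving a 5′ site are here those of its annotated junctions and of the new site, without any second new site. The new 3′ site took over 50% of the reads leaving its 5′ site in Col-0 at 28 sites, between 1% and 50% at 427 and under 1% at 113. It took over 50% in each of the 6 genotypes at 23 sites, so at these the annotated 3′ site was the less used one. Sites 2 bases away had the lowest median usage in Col-0, 0.928%, and their genes had the most reads, with a median of 20309 over all libraries.

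Among genes with at least 200 reads, the 6 sites with the highest usage were named. The site 6 bases downstream in CTC1 (AT4G09680, chr4:6121396-6121464), a component of the telomere-protecting CST complex, had a usage of 94.0, 94.8 and 96.0% in xct-2 libraries, against 84.9, 95.1 and 91.7% in Col-0 libraries. The site 9 bases downstream in ABCC13 (AT2G07680, chr2:3515544-3515621), an ABC transporter, had 89.0, 88.0 and 91.1% in xct-2 and 93.2, 89.5 and 94.1% in Col-0. In both genes the 2 genotypes overlapped, and neither site was called (adjusted p 0.527 and 0.828, edgeR's quasi-likelihood test). The site 3 bases downstream in AT1G42470 averaged 97.2 ± 3.19% in xct-2 and 97.0 ± 3.08% in Col-0 (SD, n = 3), again without a call. That in AT2G19920 rests on few reads, with 49 of 52 gene reads in xct-2 and 26 of 26 in Col-0 over the 3 libraries of each, and 1 of the Col-0 libraries held a single read. The other two of the 6 had more reads on the junction than were counted for the gene in some libraries, as did 10 sites in all, so their usage is not a proportion. They are the site 9 bases downstream in AT2G35130 and the plastid site 1 base downstream in ATCG00180, where usage in single Col-0 libraries ran from 21.8 to 208%.

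To ask which of these sites changed with XCT, usage was tested with edgeR's quasi-likelihood test on the junction reads and the other reads of the gene. The log2 usage change is the log2 odds ratio from that model, and a site was called at an adjusted p under 0.05 over all 51714 junctions tested. A junction entered the test with at least 20 reads on it and 20 other reads of its gene, which 563 of the 568 sites had. The other 5 were in AT1G27595, AT1G29730, AT2G35130, AT4G10940 and AT5G17570.

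In xct-2, 68 near-downstream sites in 64 genes were used more than in Col-0, and 1 was used less. Higher calls were made at 1.01% of all junctions tested and 12.7% of the unannotated ones, and lower calls at 1.45% of all junctions. The 68 are 12.1% of the sites tested, a share near that of unannotated junctions as a whole. An unadjusted p under 0.05 was reached by 160 sites. The median log2 usage change of the 563 sites was 0.42, against −0.13 for all junctions tested and 0.13 for all unannotated ones. A positive change was seen at 398 sites (70.7%), beside 43.0% of all junctions tested. In the authors' deposited table of the same comparison, 73 sites were higher and 1 lower among 564 with an adjusted p, and 0.718% of all junctions in it were higher. The higher calls had 63 sites in common, out of 68 by edgeR and 73 in the authors' deposited table. With a local denominator instead of all gene reads, 144 sites were called. It is the reads of the other junctions of the gene that share either splice site. The share of all junctions called with it is not given here, nor for the contrasts below, so its counts have no background. With only the 6 libraries of the 2 genotypes in the fit, 40 sites were called.

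**Figure D1:**
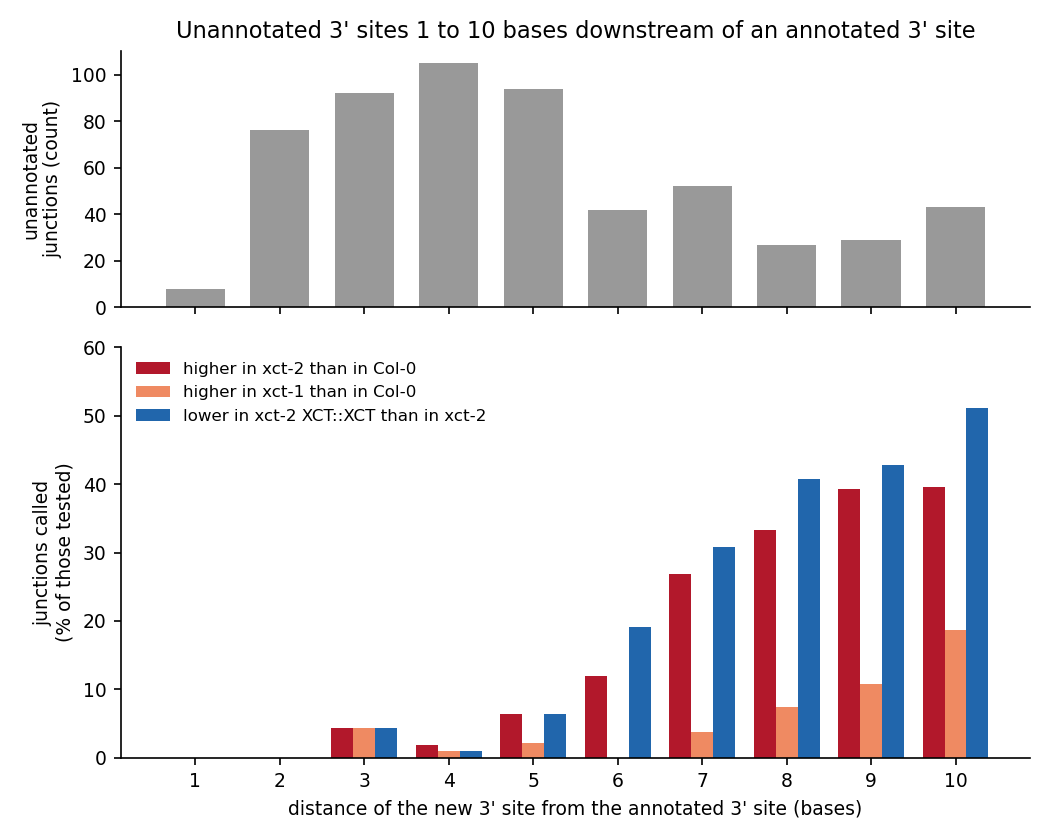
Near-downstream sites by their distance from the annotated 3′ site (x axis, bases). Upper bars count the sites at each distance, and lower bars give the percentage of tested sites called higher in xct-2, called higher in xct-1 (both over Col-0) and called lower in xct-2 XCT::XCT (over xct-2). The xct-2 bars stand at 0% for 1 and 2 bases and at 39.5% for 10 bases.

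The calls were concentrated at the larger distances. None of the 8 sites at 1 base and none of the 76 at 2 bases was higher in xct-2. Of those tested, 4 of 91 at 3 bases (4.40%), 2 of 103 at 4 bases (1.94%) and 6 of 93 at 5 bases (6.45%) were higher. The share was 11.9% at 6 bases (5 of 42), 26.9% at 7 (14 of 52), 33.3% at 8 (9 of 27), 39.3% at 9 (11 of 28) and 39.5% at 10 (17 of 43). Put in 2 ranges that were chosen after these values were seen, 56 of 192 sites at 6 to 10 bases (29.2%) and 12 of 371 at 1 to 5 bases (3.23%) were higher in xct-2. Their median log2 usage changes were 1.26 and 0.19. The ranges had almost the same median usage in Col-0, 3.67% and 3.71%, and almost the same median number of reads per site, 167 and 168. Their genes differed more, with medians of 3582 and 5003 reads. Within the range of 1 to 5 bases, the median Col-0 usage was 0.928% at 2 bases and 8.84% at 3 bases. Just outside the limit of 10 bases, 19 of 32 unannotated sites at 11 bases (59.4%) and 25 of 38 tested at 12 bases (65.8%) were higher in xct-2. The relation with distance is a description, and no test was made of it. Sites at every distance entered through reads summed over all genotypes, xct-2 included.

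**Figure D2:**
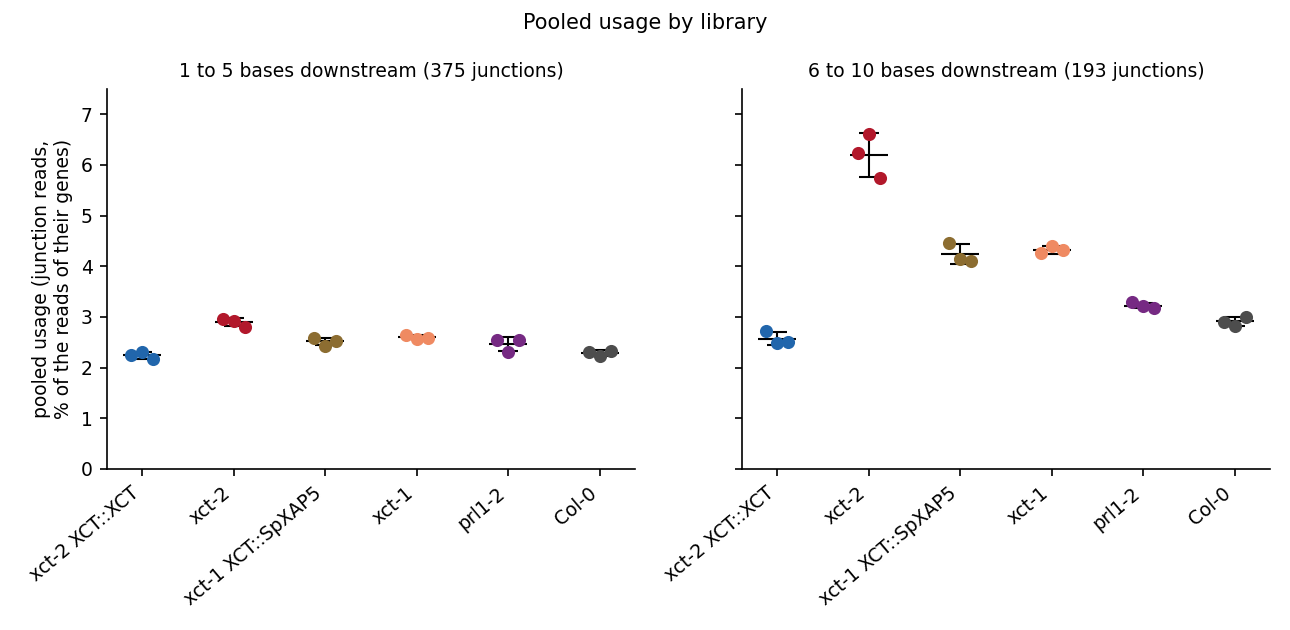
Pooled usage in each library (points), with the mean and SD of the 3 libraries of a genotype (bar and whiskers). The y axis gives the summed reads of the near-downstream sites as a percentage of the summed reads of their genes, at 1 to 5 bases (left) and 6 to 10 bases (right). At 6 to 10 bases the 3 xct-2 libraries lie between 5.74 and 6.61%, above every other library.

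The near-downstream sites together took 3.70 ± 0.130% of the reads of their genes in xct-2, 3.02 ± 0.0292% in xct-1 and 2.44 ± 0.0713% in Col-0 (SD, n = 3 each). At 6 to 10 bases it was 6.24, 6.61 and 5.74% in xct-2 libraries, 4.26, 4.41 and 4.32% in xct-1 libraries and 2.90, 2.83 and 3.01% in Col-0 libraries. The 3 genotypes do not overlap in these values, and xct-1 lies between xct-2 and Col-0. At 1 to 5 bases the values were 2.96, 2.93 and 2.80% in xct-2, 2.64, 2.56 and 2.59% in xct-1 and 2.31, 2.22 and 2.33% in Col-0. The order was the same and the distances between genotypes were smaller.

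The 8 sites with the smallest p in xct-2 over Col-0 were named. PDR2 (AT5G23630, phosphate deficiency response 2) encodes an ATPase of the endoplasmic reticulum that acts in the root response to low phosphate. Its site lies 10 bases downstream (chr5:7963670-7963765, minus strand) and shortens the exon after the annotated intron, chr5:7963680-7963765. The new site held 38.3, 34.2 and 37.3% of the gene's reads in xct-2 libraries, 16.3, 16.5 and 20.4% in xct-1 libraries and 3.05, 1.25 and 2.78% in Col-0 libraries. All xct-2 libraries were above all xct-1 libraries, and these above all Col-0 libraries. The log2 usage change in xct-2 was 4.53 (SE 0.375, adjusted p 2.41e-08), and that of the partner was −3.44 (adjusted p 3.76e-07). In xct-2 XCT::XCT libraries the site was at 3.23, 2.26 and 1.58%, which overlaps Col-0.

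EDD1 (AT3G48110) encodes a glycyl-tRNA synthetase needed for embryo development. Its site 10 bases downstream (chr3:17764802-17764907) held 55.7, 66.7 and 53.4% of the gene's reads in xct-2 libraries and 9.81, 11.4 and 14.7% in Col-0 libraries. The unannotated site thus carried more than 50% of the reads in each xct-2 library and under 15% in each Col-0 library. The log2 usage change was 3.36 (SE 0.341, adjusted p 4.77e-07), beside −3.27 for the partner (adjusted p 6.13e-07). In xct-1 libraries it held 40.5, 48.0 and 46.7%, and in xct-2 XCT::XCT libraries 8.63, 10.9 and 13.3%.

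STN7 (AT1G68830) encodes the thylakoid kinase that phosphorylates light-harvesting proteins in state transitions. Its site lies 3 bases downstream (chr1:25874619-25874701, minus strand), so the 2 transcripts differ by 1 codon's length. Usage was 50, 55.5 and 43.6% in xct-2 libraries and 2.29, 1.11 and 0% in Col-0 libraries. The groups lie far apart, with a log2 usage change of 5.95 (SE 0.618, adjusted p 6.7e-07). In xct-1 libraries usage was 35.6, 41.5 and 56.2%, which overlaps xct-2. Over its 3 libraries xct-2 had 235 reads of the gene, xct-1 had 350 and Col-0 had 263, which limits the precision of these values.

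FUC95A (AT4G34260), an α-fucosidase that trims xyloglucan in the cell wall, has its site 9 bases downstream (chr4:16398821-16398924). Usage there was 17.2, 16.1 and 18% in xct-2 libraries, against 0.898, 0.943 and 0% in Col-0 libraries, with a log2 usage change of 4.99 (SE 0.563, adjusted p 2.08e-06). A gap of the same kind separated the genotypes at the remaining 4 named sites. In AT5G45510, 9 bases downstream (chr5:18444847-18445195), usage was 18.3, 18.5 and 18.4% in xct-2 libraries and 4.76, 3.55 and 3.82% in Col-0 libraries. In AT3G26720, 10 bases downstream (chr3:9821360-9821451), it was 17.0, 16.0 and 14.6% in xct-2 libraries and 0.318, 0 and 0.993% in Col-0 libraries. AT1G63640 and AT5G58100 have their sites 10 bases (chr1:23591965-23592062) and 8 bases (chr5:23510189-23510313) downstream. These averaged 19.5 ± 3.84% and 6.69 ± 1.52% in xct-2, and 1.01 ± 0.880% and 0.581 ± 0.243% in Col-0 (SD, n = 3). The log2 usage changes of these 4 sites lay between 2.42 and 5.10, and their partners were called lower as well.

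**Figure D3:**
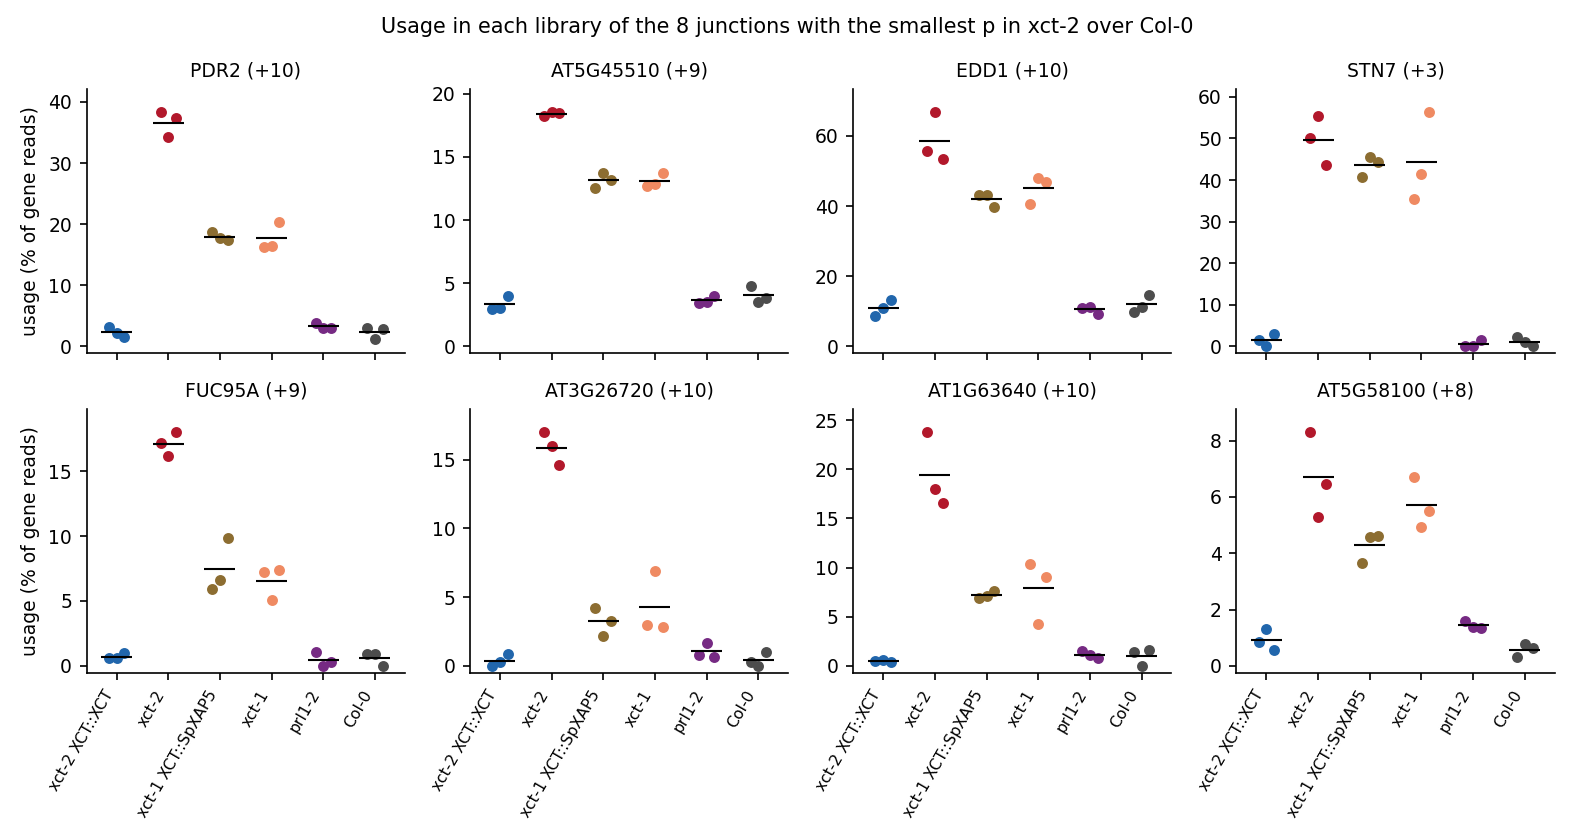
Usage of the 8 named near-downstream sites in each library (points) and its mean per genotype (line). The y axis is the percentage of the gene's reads, and the number after each gene is the distance of the site in bases. The xct-2, xct-1 XCT::SpXAP5 and xct-1 libraries lie above those of xct-2 XCT::XCT, prl1-2 and Col-0 in each panel.

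In all 68 sites called higher, every xct-2 library was above every Col-0 library. Such a separation was seen at 183 of the 563 tested sites. The share of all junctions tested with such a separation is not given here, so neither count has a background. The median gain of the 68 was 8.46 percentage points (0.202 to 49.5), and the median fold change of pooled usage was 5.09. At 20 of them the distance was a multiple of 3 and at 48 it was not, a similar division to that of all tested sites (161 of 563). Their Col-0 usage was lower than that of the 494 sites not called, with medians of 1.66% and 4.02%, and their partner introns had a median length of 95 and 109.5 bases. Divided by the share of the reads leaving the 5′ site in Col-0, 24 of 113 sites under 1%, 38 of 300 between 1 and 10%, 6 of 124 between 10 and 50% and 0 of 26 over 50% were higher. These are descriptions of a group that was chosen by the test itself.

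**Figure D4:**
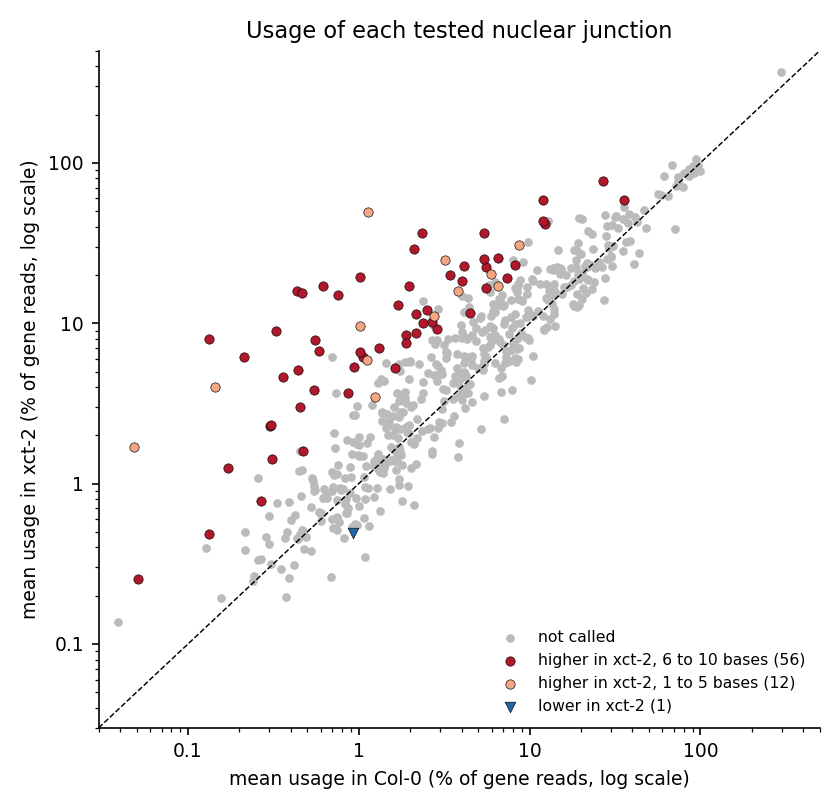
Mean usage of the 559 tested near-downstream sites of nuclear genes in xct-2 (y axis) and in Col-0 (x axis), both in percent of gene reads on log scales. The dashed line marks equal usage. Of the sites called higher, 56 lie 6 to 10 bases and 12 lie 1 to 5 bases downstream. A usage above 100% means more reads on the junction than were counted for the gene.

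Several other sites among the 68 are in well-studied genes, which were picked after their values were seen. In SWN (AT4G02020), a histone H3K27 methyltransferase of the Polycomb complex, the site 3 bases downstream (chr4:886729-886982) was at 35.6, 25.1 and 31.5% in xct-2 libraries and 10.1, 5.81 and 10.2% in Col-0 libraries. The libraries do not overlap, and the log2 usage change was 2.16 (SE 0.363, adjusted p 0.000461). HAF01 (AT1G32750), a TAF1-type subunit of the general transcription factor TFIID, had a site 5 bases downstream that averaged 24.9 ± 4.62% in xct-2 and 3.18 ± 3.42% in Col-0. In CPSF160 (AT5G51660), a subunit of the polyadenylation complex, the site 10 bases downstream averaged 8.71 ± 0.749% in xct-2 and 2.15 ± 1.38% in Col-0. EIF3A (AT4G11420), a translation initiation factor subunit, had 2.32 ± 0.457% in xct-2 and 0.305 ± 0.0754% in Col-0 at its site 10 bases downstream. Genes of the light response were PHOT1 (AT3G45780), a blue-light receptor, and SPA1 (AT2G46340), a partner of the ubiquitin ligase COP1. Their sites, 10 and 8 bases downstream, averaged 1.26 ± 0.163% and 1.61 ± 0.284% in xct-2, and 0.171 ± 0.0551% and 0.473 ± 0.154% in Col-0 (SD, n = 3). Chloroplast genes were represented by DEG1 (AT3G27925), a protease of the thylakoid lumen, with 20.1 ± 6.84% in xct-2 and 3.43 ± 1.07% in Col-0. SOS1 (AT2G01980), the sodium-proton exchanger of salt tolerance, had 16.0 ± 6.99% in xct-2 and 3.81 ± 1.38% in Col-0. Each of these changes passed the test (adjusted p at most 0.0158).

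The single site that was lower in xct-2 lies 4 bases downstream in CLPC1 (AT5G50920, chr5:20719803-20720222), an Hsp100 chaperone of the chloroplast stroma. It was chosen for this after its values were seen. Usage was 0.514, 0.434 and 0.529% in xct-2 libraries and 0.968, 0.805 and 1.02% in Col-0 libraries. The groups do not overlap, and the log2 usage change was −0.91 (SE 0.237, adjusted p 0.0361). In prl1-2 the same site was higher than in Col-0, at 1.70, 1.94 and 1.55% (log2 usage change 0.89, SE 0.227, adjusted p 0.0168).

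At the partners, the annotated sites that compete for the same 5′ site, usage was lower in xct-2 for 29 of the 68 sites called higher and higher for none. The log2 usage change of the partner was negative at 64 of the 68, with a median of −1.40. Among the sites not called, 11 of 470 tested partners were lower and the median was −0.16. Reads on a partner count among the other reads of the gene in the test of the new site, so the 2 tests are not independent. The 4 partners with a positive change were in AT1G15290, GC5 (AT1G79830), AT4G36520 and Tudor1 (AT5G07350), and none of them was called.

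**Figure D5:**
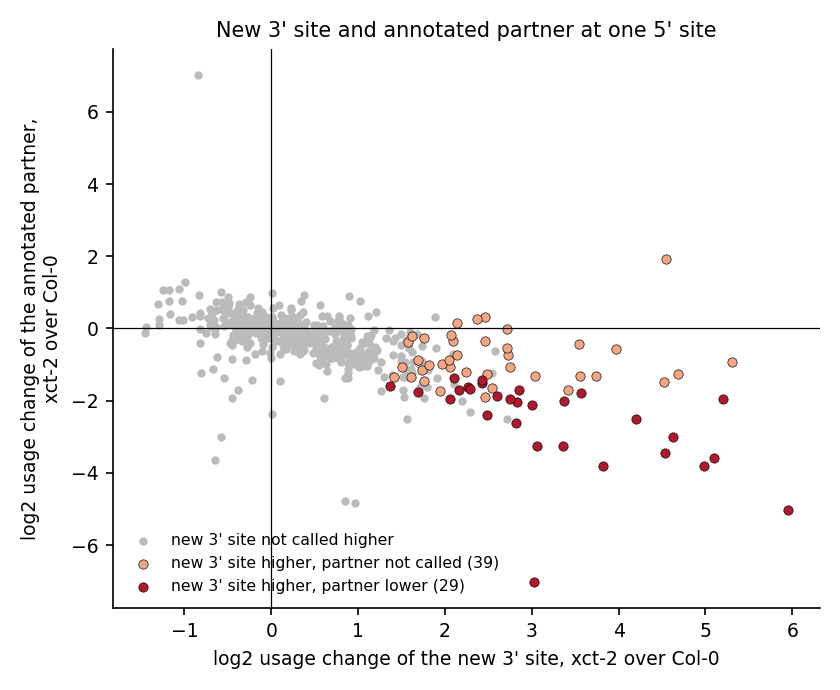
Log2 usage change in xct-2 over Col-0 of each near-downstream site (x axis) and of its annotated partner (y axis), for nuclear sites with both tested. Among the 68 sites called higher, 29 have a partner called lower and 39 a partner not called. Both junctions are measured against the reads of the same gene.

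Some genes held several near-downstream sites, and 85 genes had at least 2 that were tested. A pair of sites was higher in xct-2 in 4 of them, namely AT1G12800, GC5, AT2G36810 and SCD1. In GC5, a Golgi coiled-coil protein, the site 6 bases downstream averaged 22.4 ± 1.97% in xct-2 and 5.53 ± 1.92% in Col-0, and that 5 bases downstream at another intron 5.88 ± 1.47% and 1.12 ± 0.469%. AT5G45510 has 2 new sites at the same 5′ site, so they share all upstream sequence. The one 9 bases downstream was higher in xct-2 as given above. The one 6 bases downstream averaged 2.22% in xct-2 and 2.60% in Col-0 (log2 usage change −0.22, SE 0.311, adjusted p 0.922). The difference between the 2 sites was not tested. At the other 7 such 5′ sites no new 3′ site was called. In REF4 (AT2G48110), a Mediator-associated protein, the site 8 bases downstream averaged 45.1% in xct-2 and 19.5% in Col-0 (adjusted p 0.0698), and the site 5 bases downstream averaged 19.2% and 27.7% (adjusted p 0.83).

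In xct-1, the other mutant of the same gene, 22 near-downstream sites in 22 genes were higher than in Col-0 and none was lower. Higher calls were made at 0.723% of all junctions and at 9.59% of the unannotated ones, and lower calls at 0.336% of all junctions. The 22 are 3.91% of the sites tested. An unadjusted p under 0.05 was reached by 94 sites, and the median log2 usage change was 0.29, beside −0.09 for all junctions and 0.15 for unannotated ones. The authors' deposited table called 20 of the sites higher, and 0.452% of all its junctions. With 16 sites in both, the overlap was 16 of 22 by edgeR and 16 of 20 in the authors' deposited table. By distance, 15 of 192 sites at 6 to 10 bases (7.81%) and 7 of 371 at 1 to 5 bases (1.89%) were higher, with 8 of 43 at 10 bases and 4 of 91 at 3 bases. With the local denominator, 63 of 558 sites were higher and 5 were lower. The count of 22 was 13 by DESeq2, 8 with only the 6 libraries of the 2 genotypes and 14 without Col-0 replicate 3. That of 15 at 6 to 10 bases was 9 without Col-0 replicate 3 and also without xct-1 replicate 1.

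The 4 sites with the smallest p in xct-1 were those of STN7, PDR2, EDD1 and AT5G45510. Their log2 usage changes in xct-1 over Col-0 were 5.55 (SE 0.615, adjusted p 5.62e-06), 3.10 (SE 0.376, adjusted p 1.74e-05), 2.59 (SE 0.340, adjusted p 4.73e-05) and 1.84 (SE 0.247, adjusted p 6.25e-05). The comparisons of xct-2 and xct-1 share the Col-0 libraries. AT5G45510 was at 12.7, 12.9 and 13.8% in xct-1 libraries, below each xct-2 library and above each Col-0 library. Tested against each other, xct-2 and xct-1 differed at none of the 563 sites by edgeR's quasi-likelihood test or by DESeq2, with 60 sites at an unadjusted p under 0.05. With the local denominator, 32 differed. With all gene reads as the denominator, 0.0928% of all junctions were called in this comparison. The median log2 usage change of xct-2 over xct-1 was 0.20 at the near-downstream sites, and 380 of 563 (67.5%) were positive. For all junctions tested the median was −0.04, and 47.6% were positive.

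In xct-2 XCT::XCT, 80 near-downstream sites were lower than in xct-2 and none was higher. Lower calls were made at 1.08% of all junctions and at 13.1% of the unannotated ones, so the 14.2% of the near-downstream sites was close to that of the whole class of unannotated junctions. The median log2 usage change was −0.43, beside 0.14 for all junctions and −0.12 for unannotated ones. With the local denominator, 167 sites were called. At 6 to 10 bases 69 of 192 sites (35.9%) were lower, and at 1 to 5 bases 11 of 371 (2.96%). Against Col-0, no site was called in xct-2 XCT::XCT by edgeR's quasi-likelihood test or DESeq2, with 12 sites at an unadjusted p under 0.05. Only 0.0058% of all junctions were called in that comparison. Pooled usage at 6 to 10 bases was 2.72, 2.50 and 2.50% in xct-2 XCT::XCT libraries, below the 3 Col-0 libraries, and the largest of them was under every xct-2 library. At the 68 sites, which were chosen by the test of xct-2 over Col-0, the pooled value of xct-2 was 7.42 ± 0.255%, against 1.47 ± 0.161% in Col-0 (SD, n = 3). The line xct-2 XCT::XCT had 1.42 ± 0.0218% and prl1-2 had 1.86 ± 0.0454%. The line xct-1 XCT::SpXAP5 had 4.64 ± 0.0844%, and its parent xct-1 had 4.37 ± 0.241%. The other 4 genotypes were no side of that contrast, but their libraries entered its estimate of the spread.

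In xct-1 XCT::SpXAP5, no near-downstream site differed from xct-1 by edgeR's quasi-likelihood test or by DESeq2, and 8 sites had an unadjusted p under 0.05. The share of all junctions called in this comparison was 0%. Against Col-0 25 sites were higher and 1, the CLPC1 site, was lower. Over all junctions, 0.762% were higher and 0.342% lower in that comparison. DESeq2 called 15 sites in it, and the local denominator gave 86. The PDR2 site was at 18.7, 17.7 and 17.4% in xct-1 XCT::SpXAP5 libraries, against 16.3, 16.5 and 20.4% in xct-1 libraries. The EDD1 site was at 43.0, 43.3 and 39.6% in xct-1 XCT::SpXAP5 libraries and 40.5, 48.0 and 46.7% in xct-1 libraries, so the groups overlapped at both. Pooled usage at 6 to 10 bases was 4.47, 4.15 and 4.10% in xct-1 XCT::SpXAP5, a range that overlaps the 4.26 to 4.41% of xct-1. The level of the SpXAP5 transgene was not analysed here.

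In prl1-2, 6 near-downstream sites were higher and 2 were lower than in Col-0. Of all junctions 0.174% were higher and 9.28% lower, and of the unannotated ones 1.28% were higher. The median log2 usage change of the sites was −0.04, beside −0.79 for all junctions tested and −0.07 for the unannotated ones. With the 3 sites that had no read in prl1-2 set at a floor of 3 counts, the median was −0.03. An unadjusted p under 0.05 was reached by 46 sites. In the authors' deposited table of this comparison only 60 of the sites had an adjusted p, with 2 higher and 0 lower. Those 2 were among the 6 higher by edgeR. Of the 44496 junctions with an adjusted p in that table, 43 were higher and 5687 lower. Pooled usage over all sites was 2.66 ± 0.110% in prl1-2 and 2.44 ± 0.0713% in Col-0, and at 6 to 10 bases it was 3.29, 3.21 and 3.18% in prl1-2 libraries and 2.90, 2.83 and 3.01% in Col-0 libraries. The libraries of prl1-2 and Col-0 do not overlap in either value, although the mean of the usage of each site was lower in prl1-2, a difference of −1.48 percentage points. The 8 calls were 2 by DESeq2, and 3 without Col-0 replicate 1 and also without prl1-2 replicate 3. Whether prl1-2 and xct-2 differ was not tested.

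The 4 sites with the smallest p in prl1-2 were in SCD1, GLU1, DEG2 and SUVH9. SCD1 (AT1G49040), a DENN-domain protein of cytokinesis and vesicle traffic, has a site 4 bases downstream (chr1:18146631-18146777, minus strand) with 1.18, 1.75 and 2.64% in prl1-2 libraries and 0, 0 and 0.145% in Col-0 libraries. The 3 Col-0 libraries held 1 read in all, and all other 5 genotypes had 1.69 to 3.45%, the xct-2 XCT::XCT line included. The log2 usage change was 4.15 (SE 0.778, adjusted p 0.00271) in prl1-2 and 3.96 (SE 0.765, adjusted p 0.00219) in xct-2. GLU1 (AT5G04140), the ferredoxin-dependent glutamate synthase of photorespiration, had 0.441, 0.183 and 0.151% in prl1-2 libraries at its site 8 bases downstream (chr5:1137775-1137857), against 0.0192, 0.0896 and 0.0440% in Col-0 libraries. This is a rarely used site in a gene of 122849 reads, with 25 reads on it in prl1-2 and 8 in Col-0. DEG2 (AT2G47940), a chloroplast protease, had 11.2, 10.4 and 17.0% in prl1-2 and 3.64, 3.70 and 3.67% in Col-0 at its site 8 bases downstream (adjusted p 0.0134). SUVH9 (AT4G13460), a protein of RNA-directed DNA methylation, was lower at 8.16, 3.66 and 3.95% in prl1-2, against 15.5, 14.9 and 26.2% in Col-0, with its site 9 bases downstream (adjusted p 0.0147). Its partner was lower in prl1-2 too (log2 usage change −1.46, adjusted p 0.0235). With the local denominator, the SUVH9 change was −0.97 (adjusted p 0.472). The site's share of the reads leaving its 5′ site was 28.6, 13.0 and 11.5% in prl1-2 libraries and 24.6, 22.0 and 37.2% in Col-0 libraries, which overlap. Of 13 alternative settings, 7 ended the SUVH9 call, 3 that of GLU1 and 2 that of DEG2, while SCD1 passed in each.

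The other 4 called sites in prl1-2 were in SWN, AT3G33530, CLPC1 and AT1G10050, and were named after their values were seen. The SWN site was at 17.3, 21.9 and 19.2% in prl1-2 libraries and 10.1, 5.81 and 10.2% in Col-0 libraries (adjusted p 0.0351). Values of 24.6, 26.5 and 23.3% were found in xct-1 (adjusted p 0.0111 over Col-0), and of 11.2, 8.20 and 11.0% in xct-2 XCT::XCT. The AT3G33530 site, 6 bases downstream, was at 8.63, 8.70 and 10.2% in prl1-2 libraries and 2.61, 5.63 and 4.28% in Col-0 libraries (adjusted p 0.0409). There the xct-2 libraries, at 2.02, 4.35 and 2.51%, overlapped Col-0. The AT1G10050 site, 7 bases downstream, was lower at 7.89, 15.6 and 8.20% in prl1-2, against 25, 32.3 and 27.9% in Col-0 (adjusted p 0.0376).

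Sites exactly 3 bases downstream are tandem acceptors, at which a shift removes 1 codon's length and keeps the frame. Their pooled usage was 5.75, 4.93 and 6.24% in xct-2 libraries, 5.15, 4.09 and 5.46% in xct-1 libraries, 5.08, 4.45 and 5.36% in prl1-2 libraries and 4.15, 3.76 and 5.20% in Col-0 libraries. The libraries of each mutant overlap those of Col-0. Within each replicate number the mutant library was above the Col-0 library, but no label ties these numbers. The same held for xct-1 XCT::SpXAP5 libraries (4.95, 5.22 and 5.45%), and xct-2 XCT::XCT libraries had 4.37, 5.32 and 5.14%. In xct-2, 4 of the 91 tested were higher, those of STN7, SWN, GAMMA-ADAPTIN 1 (AT1G23900) and AT1G58602, and none was lower. GAMMA-ADAPTIN 1, a subunit of a clathrin adaptor, averaged 4.01 ± 1.84% in xct-2 and 0.144 ± 0.250% in Col-0 (log2 usage change 4.62, SE 0.803, adjusted p 0.000675). The 4 tandem sites with the most reads, from 2042 to 4641, were not called. MOS1 (AT4G24680), a regulator of the immune receptor gene SNC1, had the most. Its site (chr4:12733454-12733954) was at 78.6, 69.7 and 79.8% in xct-2 libraries and 75.7, 65.9 and 80.2% in Col-0 libraries (log2 usage change 0.14, SE 0.360, adjusted p 0.976). Those of AT1G61850, AT5G16280 and AT3G15980 averaged 30.8 ± 3.28, 82.0 ± 1.78 and 39.5 ± 3.39% in xct-2, and 28.9 ± 3.55, 74.4 ± 3.39 and 47.9 ± 2.75% in Col-0. Adjusted p was at least 0.688 at these 4. At all but the AT1G61850 site, the new acceptor took more than 50% of the reads leaving the 5′ site in Col-0.

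Near-downstream sites were found in 4 of 25 listed clock genes, 1 of 36 listed splicing genes and 0 of 5 listed genes of nonsense-mediated decay. The lists do not hold every gene of these processes, so the counts cover the listed genes only. None of these 5 sites was called in xct-2, xct-1 or prl1-2, a number too small to set against the 12.1% called among all sites in xct-2. PRR7 (AT5G02810), a repressor of morning clock genes, had its site 3 bases downstream at 8, 7.08 and 5.07% in xct-2 libraries and 6.67, 9.62 and 5.49% in Col-0 libraries (log2 usage change −0.04, SE 0.382). LNK2 (AT3G54500), a coactivator of evening genes, had its site 5 bases downstream at 2.44, 3.88 and 1.22% in xct-2 and 6.31, 6.31 and 8.51% in Col-0. These 2 groups do not overlap, but the difference did not pass over all junctions (log2 usage change −1.44, SE 0.585, adjusted p 0.34). TIC (AT3G22380), a nuclear regulator of the clock, and UBP12 (AT5G06600), a deubiquitinase, have sites 2 bases downstream with 1.69 ± 0.0615% and 0.720 ± 0.282% in xct-2, and 1.54 ± 0.474% and 1.01 ± 0.470% in Col-0. SUS2 (AT1G80070), the PRP8 protein at the centre of the spliceosome, had 1.43 ± 0.477% in xct-2 and 1.28 ± 0.395% in Col-0 at a site 2 bases downstream.

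Unannotated 3′ sites at other distances are set beside these values, and no test was made between the classes. In xct-2, 68 of 563 near-downstream sites (12.1%) were higher, beside 343 of 499 sites 11 to 40 bases downstream (68.7%) and 1 of 254 sites 1 to 10 bases upstream. The upstream sites had 9 lower calls. Median log2 usage changes in xct-2 were 0.42 at the near-downstream sites, 5.02 at 11 to 40 bases downstream and −0.16 at 1 to 10 bases upstream. No near-downstream site was without a read in Col-0, whereas 175 of the 514 sites at 11 to 40 bases were. Every unannotated junction had at least 80 reads over all libraries. A site without a Col-0 read is thus in the set only through reads of other genotypes. The share called and the median change at 11 to 40 bases rest in part on such sites. A near-downstream site with few Col-0 reads can likewise have reached 80 reads through the genotypes in which it is high. At the AT3G26720 site, xct-2 libraries held 33, 26 and 24 reads and Col-0 libraries 1, 0 and 4. How far this bears on the calls at near-downstream sites was not tested. In prl1-2 over Col-0, 6 near-downstream sites, 2 sites at 11 to 40 bases and 10 upstream sites were higher.

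Levels of the genes were compared to see whether they moved with the sites. The 64 genes with a site higher in xct-2 had a median log2 ratio of xct-2 to Col-0 of −0.03 in CPM, with a pseudocount of 1, beside 0.07 for 436 genes with any near-downstream site and 0.00 for 8009 genes. Where the distance was a multiple of 3, the median was 0.22 (20 genes), and where it was not, −0.19 (45 genes). One gene is in both groups. These medians are descriptions of genes chosen by the usage test, and no test was made between them.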

How the data were processed

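Reads were aligned to TAIR10 with minimap2 2.17, per the submitters' processing notes, and the counting program is not given in the sources used here. Each of the 18 deposited count files holds the authors' raw read counts for 32436 genes or loci, 170526 exon bins, 127555 annotated and 4007 unannotated junctions. The authors' 5 deposited comparison tables hold log2 ratios and adjusted p-values, used only where named. No column was left unmapped (0). Gene symbols came from a RefSeq table and matched 563 of the 568 sites.

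The members and gene lists were chosen with earlier results of these data known. For each junction, edgeR 4.0.16 (R 4.3.3) compared 2 counts of each library, those of the junction and those of the gene without the junction. The model had 1 term for each library and 1 usage term for each genotype, over all 18 libraries. The quasi-likelihood test was adjusted by Benjamini-Hochberg over 51714 junctions in each of 8 contrasts. The standard error is the log2 usage change divided by the square root of F. Alternatives were DESeq2 1.42.0, an offset by the gene count, other count minimums and a local denominator. That denominator is the reads of the other junctions of the gene that share either splice site. Further alternatives were the 6 libraries of a contrast alone, a replicate block and leaving out each library. Sites named in the text were the 8, 4 and 4 with the smallest p in xct-2, xct-1 and prl1-2, the 6 with the highest usage, the 4 with the most reads at 3 bases, and all in the gene lists. The replicates are independent biological ones, per the labels, and their number limits the precision.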

Additional observations from a re-analysis of the deposited data

How the results depend on the processing

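The counts called stayed within 1.5 times the reported ones except as follows. With the local denominator, in which competing junctions are each other's denominator, calls were 144 in xct-2 over Col-0 (69 reported), 68 in xct-1 over Col-0 (22), 167 in xct-2 XCT::XCT over xct-2 (80), 32 in xct-2 over xct-1 (0), 1 in xct-2 XCT::XCT over Col-0 (0) and 86 in xct-1 XCT::SpXAP5 over Col-0 (26). Higher sites then numbered 35 at 1 to 5 bases and 104 at 6 to 10 bases in xct-2, and 19 and 44 in xct-1. The share of all junctions called with this denominator is not given here. With only the 6 libraries of a contrast, fewer samples set the spread, and calls over Col-0 were 40 for xct-2, 8 for xct-1, 4 for prl1-2 and 15 for xct-1 XCT::SpXAP5. By range these were 7 and 33 in xct-2, and 4 and 4 in xct-1. DESeq2 called 13 sites for xct-1, 2 for prl1-2 and 15 for xct-1 XCT::SpXAP5 (each over Col-0), and 7 at 6 to 10 bases in xct-1. With the gene count as an offset, 4 were called in prl1-2 and 8 in xct-2 over xct-1. The cause of the DESeq2 and offset shifts was not tested. Leaving out 1 library at a time gave 14 to 19 calls in xct-1, 9 to 12 at 6 to 10 bases in xct-1, 3 to 7 in prl1-2 and 0 to 1 in xct-2 over xct-1. Within 1.5 times the reported counts were the 50 to 60 calls this gave in xct-2 over Col-0. So were the 61 to 72 in xct-2 XCT::XCT over xct-2 and the 19 to 25 in xct-1 XCT::SpXAP5 over Col-0. The pooled difference from Col-0 of 1.25 percentage points in xct-2 was 2.49 as the mean of the usage of each site and 2.14 for nuclear sites. That of 0.223 in prl1-2 was reversed, at −1.48 and −1.34. The mean gives a site in a weakly read gene the same weight as one in a strongly read gene. What caused the reversal was not tested. The 2 ranges of distance and the nuclear mean were chosen after seeing the data.

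The replicate block, a term for the replicate number, gave 65 calls in xct-2, 20 in xct-1, 8 in prl1-2, 80 in xct-2 XCT::XCT over xct-2 and 26 in xct-1 XCT::SpXAP5 over Col-0. Deviations from the genotype means correlated by 0.040 on average over same-numbered libraries (−0.213 to 0.358). Over differently numbered libraries the average was −0.020 (−0.411 to 0.250). All pairs among replicate 2 of xct-2, xct-1, prl1-2 and Col-0 were positive (0.191 to 0.358), as were those among replicate 3 of xct-2, xct-1 and Col-0 (0.186 to 0.344), while replicate 1 of xct-2 and Col-0 gave −0.0393. No contrast had all its pairs over 0.1 and no label ties the numbers, so the block is not in the reported fit. Whether these libraries were prepared together is not given in the labels. Depth limits single sites, whose genes had a median of 4343 reads over all libraries.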
